A study of Mus musculus with 187 samples.

Results

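The transcripts described here are 10 of the most abundant in mouse 2-cell embryos: Spin1, Omt2b, Omt2a, Gm14420, Tcl1, Khdc1b, Ccdc6, Kpna2, Gm4567 and Prps1. They were chosen by their level in the deposited tables of 2-cell embryos, and that level is therefore given as a description, without a test. All 10 are listed in both 2-cell tables, among 8735 genes in the table of sperm RNA injections and 8805 in the table of tRNA fragment injections. All 10 are also in the table of 4-cell embryos with 23534 features, where Gm4567 has 2 loci. In each table all of them passed the filter on low values.

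The study asked what RNA carried by sperm does in the embryo, and measured RNA in 186 single FVB mouse embryos. Eggs and sperm from animals fed control diet were joined by in vitro fertilisation, zygotes were injected 2 h later, and 2-cell embryos were collected 32 h after fertilisation. Of the 2-cell embryos, 42 had received sperm small RNA of control males and 46 that of males on low protein diet. A further 26 had received tRF-GlyGCC, a modified synthetic copy of a glycine tRNA fragment, 6 had received tRF-GluCTC, an unmodified fragment of a glutamate tRNA, and 11 had received GFP. In the 4-cell stage 27 embryos had received an antisense oligonucleotide to tRF-GlyGCC and 28 GFP. GFP stands for mRNA of histone H3.3 fused to green fluorescent protein, and collected embryos were chosen for GFP signal. The labels and the table of single embryos call the injected 4-cell group antisense, while the authors' deposited comparison calls it tRFGGunmod, so its injected RNA is uncertain. Libraries of 2-cell embryos held 0.644 to 4.56 M counts, and 6644 to 11496 features reached 1 FPKM in 4-cell embryos. All 10 markers of the 2-cell stage were listed at 2 cells. Each library is a whole embryo of 2 or 4 cells by its label, so differences between the cells of an embryo cannot be seen. Levels are scaled within each library and do not give an amount of RNA per embryo.

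The mouse oocyte stores RNA that it no longer transcribes after ovulation, and the early embryo lives on this store. Most of the store is broken down by the end of the 2-cell stage, while the embryo's own genome is switched on. A transcript counted at this stage can thus be inherited, newly made, or both.

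Several of the genes have known roles in the egg or in cleavage. Spin1 (chr13:51097934-51152562) encodes spindlin 1, a protein of the oocyte spindle that also binds methylated histone H3. Tcl1 (chr12:105216753-105222737) encodes a small protein that binds and activates the kinase AKT. Khdc1b (chr1:21383556-21386384) belongs to a family with an RNA-binding KH domain that is expressed in oocytes. Omt2a (chr9:78311972-78314797) and Omt2b (chr9:78328030-78329620) are neighbouring genes named for their expression in oocyte maturation. Kpna2 (chr11:106988629-106999525) encodes an importin alpha, which carries proteins into the nucleus, and Prps1 (chrX:140456603-140476140) makes phosphoribosyl pyrophosphate, the precursor of nucleotides. Ccdc6 (chr10:70096878-70193200) encodes a coiled-coil protein, known from its fusion with RET in human thyroid tumours. Gm14420 (chr2:177464742-177479194) is named Zfp970 in the RefSeq table, a zinc finger gene, and Gm4567 (chr7:22713598-22719710) is a gene model without a described role. Positions are those of GRCm38, and all 10 are annotated as protein coding.

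The pair of Omt2 genes is shown in sequence because the counts of genes that share long stretches cannot be fully told apart. These are the last 240 coding bases of each gene in the GENCODE M21 annotation of GRCm38, read 5′ to 3′. The coding sequence of Omt2a spans chr9:78312248-78313396 on the minus strand and that of Omt2b spans chr9:78328138-78329353 on the plus strand, each over 3 exons. The capitals mark the longest run of bases that both coding sequences share, 120 bases ending with the stop codon. Over the whole transcripts the longest shared run was 260 bases.
Omt2a: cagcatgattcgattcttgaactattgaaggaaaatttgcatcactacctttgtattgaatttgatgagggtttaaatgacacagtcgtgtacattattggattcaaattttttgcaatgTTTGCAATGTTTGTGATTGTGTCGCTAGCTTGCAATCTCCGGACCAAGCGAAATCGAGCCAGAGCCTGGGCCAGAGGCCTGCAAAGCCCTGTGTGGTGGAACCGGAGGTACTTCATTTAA
Omt2b: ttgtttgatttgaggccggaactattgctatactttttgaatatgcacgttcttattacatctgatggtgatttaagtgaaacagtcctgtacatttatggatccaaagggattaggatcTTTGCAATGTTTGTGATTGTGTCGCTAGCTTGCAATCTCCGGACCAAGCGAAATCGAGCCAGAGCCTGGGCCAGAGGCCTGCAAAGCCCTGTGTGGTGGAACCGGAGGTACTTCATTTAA
The shared run makes up 39.6% of the 303 coding bases of Omt2a and 33.3% of the 360 of Omt2b. Over the whole transcripts, 51.5% of the 50-base stretches of Omt2b occurred in Omt2a and 29.5% of those of Omt2a in Omt2b. How reads from such stretches were assigned is not stated in the labels or headers.

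The other genes differed widely in how much of their sequence is their own. No 50-base stretch of Tcl1 or Ccdc6 occurred in another annotated gene, and 2.58% of those of Spin1 and 3.66% of those of Khdc1b did. For Prps1 the share was 10.1%, all of it with Prps1l3. Gm14420 shared 52.2% of its stretches with 49 other genes, most of all Gm14288 and Gm14440. Kpna2 shared 92.4% of its stretches with other genes, and 91.0% of its stretches occurred in Gm10184, while Gm4567 shared 96.7%, all of it with Gm10668. The values of Omt2a, Omt2b, Gm14420, Kpna2 and Gm4567 are therefore uncertain as values of a single gene.

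Together the 10 transcripts took a median of 4.13% of all counts in embryos with control sperm RNA (2.69 to 7.21%) and of 4.08% with low protein sperm RNA (2.56 to 7.03%). The medians were 4.07% with GFP, 4.43% with tRF-GlyGCC and 4.64% with tRF-GluCTC. By mean share of counts Spin1 ranked 1 and Omt2b 2 in the sperm RNA table, and the order was the reverse in the tRF table. Omt2b was the most counted gene in 45 of 88 and 25 of 43 embryos, Spin1 in 22 and 12, and Khdc1b in 11 and 2. The lowest of the 10 was Ccdc6 at rank 11 in the sperm RNA table and Kpna2 at rank 15 in the tRF table. Genes in between that are not among the 10 were Zbed3 in both tables, and Intu, Gm7102, Dcdc2c and Gm21312 in the tRF table. Just below came H3f3b, which encodes histone H3.3, at a mean of 2732 CPM, counts scaled to the size of the library, against 2946 for Ccdc6 in the sperm RNA table. In the tRF table it was Gm5891 at 2417 CPM against 2452 for Kpna2.

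Counts favour long transcripts, and per transcript length the order was another. On a scale of counts per base of transcript, scaled to the same sum in each embryo, Omt2b stood at 21725 ± 5380 (SD, n = 88) in the sperm RNA table, rank 1 of 8646 genes with a length. Omt2a followed at 9396 ± 2481 and Tcl1 at rank 4 with 7068 ± 3938. Spin1, whose transcript of 4434 bases is long, was at rank 15, and Ccdc6 with 5511 bases was at rank 75 with 1251 ± 515. In the tRF table the per-length ranks of Omt2b, Omt2a and Spin1 were the same, and that of Ccdc6 was 51.

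The first comparison set embryos with low protein sperm RNA against those with control sperm RNA. None of the 10 transcripts was called by edgeR, where 0.0917% of 8721 genes were called at an adjusted p under 0.05, and 1 of the 10 had an unadjusted p under 0.05 against 3.99% of all genes. With DESeq2 none of the 10 was called either. Of the 10, 8 were lower and 2 higher after injection of low protein RNA, against 4019 lower and 4702 higher of all 8721 genes. Several of the 10 are correlated across embryos, as given below, so their directions are not independent. The median log2 fold change of the 10 was -0.07, against 0.02 over all genes. For every transcript the ranges of the groups overlapped.

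Gm14420 was the transcript of lowest p in this comparison. Its level was 1662 CPM at the lowest, 3463 at the median and 12457 at the highest in the 42 control embryos. With low protein sperm RNA the same values were 813, 2951 and 7910 CPM in 46 embryos. Thus 17 of the 46 were above the control median and 4 lay below every control embryo, while none was above the highest control. The fitted log2 fold change was -0.37 ± 0.16 (SE), with an unadjusted p of 0.0200 and an adjusted p of 1.00 by edgeR. Within batches the difference ran from -2.02 in batch D, which holds 1 control embryo, to 0.41 in batch A, and it was positive in 2 of 6 batches. A batch here is the set of embryos whose titles end in the same code.

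Spin1 was between 2748 and 17444 CPM in control embryos with a median of 5866, and between 2340 and 33624 with a median of 5222 with low protein sperm RNA. Its low protein range reached higher at a lower median, with 6 of 46 embryos above every control embryo and 5 below. The log2 fold change was 0.19 ± 0.18, with an adjusted p of 1.00 by edgeR. It was 0.08 ± 0.16 without low protein replicate 14 and 0.44 without batch E. Khdc1b had the largest coefficient of variation of the 10 as estimated by edgeR in this table, and ran from 725 to 28440 CPM in control embryos and from 837 to 22864 with low protein sperm RNA. Its medians were 3215 and 2719 CPM, and the log2 fold change was -0.06 ± 0.25.

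The Omt2 pair had the smallest standard errors of the 10. Omt2b was at 4313, 7331 and 12166 CPM (lowest, median, highest) with control and at 4041, 6130 and 12812 with low protein sperm RNA. Omt2a was at 1885, 3389 and 6636 CPM with control and at 1787, 3026 and 5831 with low protein sperm RNA. The groups overlapped over nearly their whole ranges, and the log2 fold changes were -0.11 ± 0.10 for Omt2b and -0.12 ± 0.10 for Omt2a.

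The remaining genes had medians that lay close together. Tcl1 stood at medians of 3415 and 3440 CPM with control and low protein sperm RNA, and Kpna2 at 3011 and 3031. Prps1 was at 3226 and 2910 CPM, Gm4567 at 3460 and 3330, and Ccdc6 at 2550 and 2784. Prps1 was lower with low protein sperm RNA within all 6 batches in the mean of log2 levels, with differences from -0.30 to -0.14. In batch D, with 1 control and 2 low protein embryos, its mean CPM was higher with low protein sperm RNA (3122 against 2837). How many of all genes were lower within every batch was not counted. Over all batches the log2 fold changes of these 5 lay between -0.12 for Gm4567 and 0.02 for Tcl1. The widest 95% interval of the 5 was that of Gm4567, from -0.45 to 0.22, and the narrowest that of Ccdc6, from -0.25 to 0.19.

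**Figure D1:**
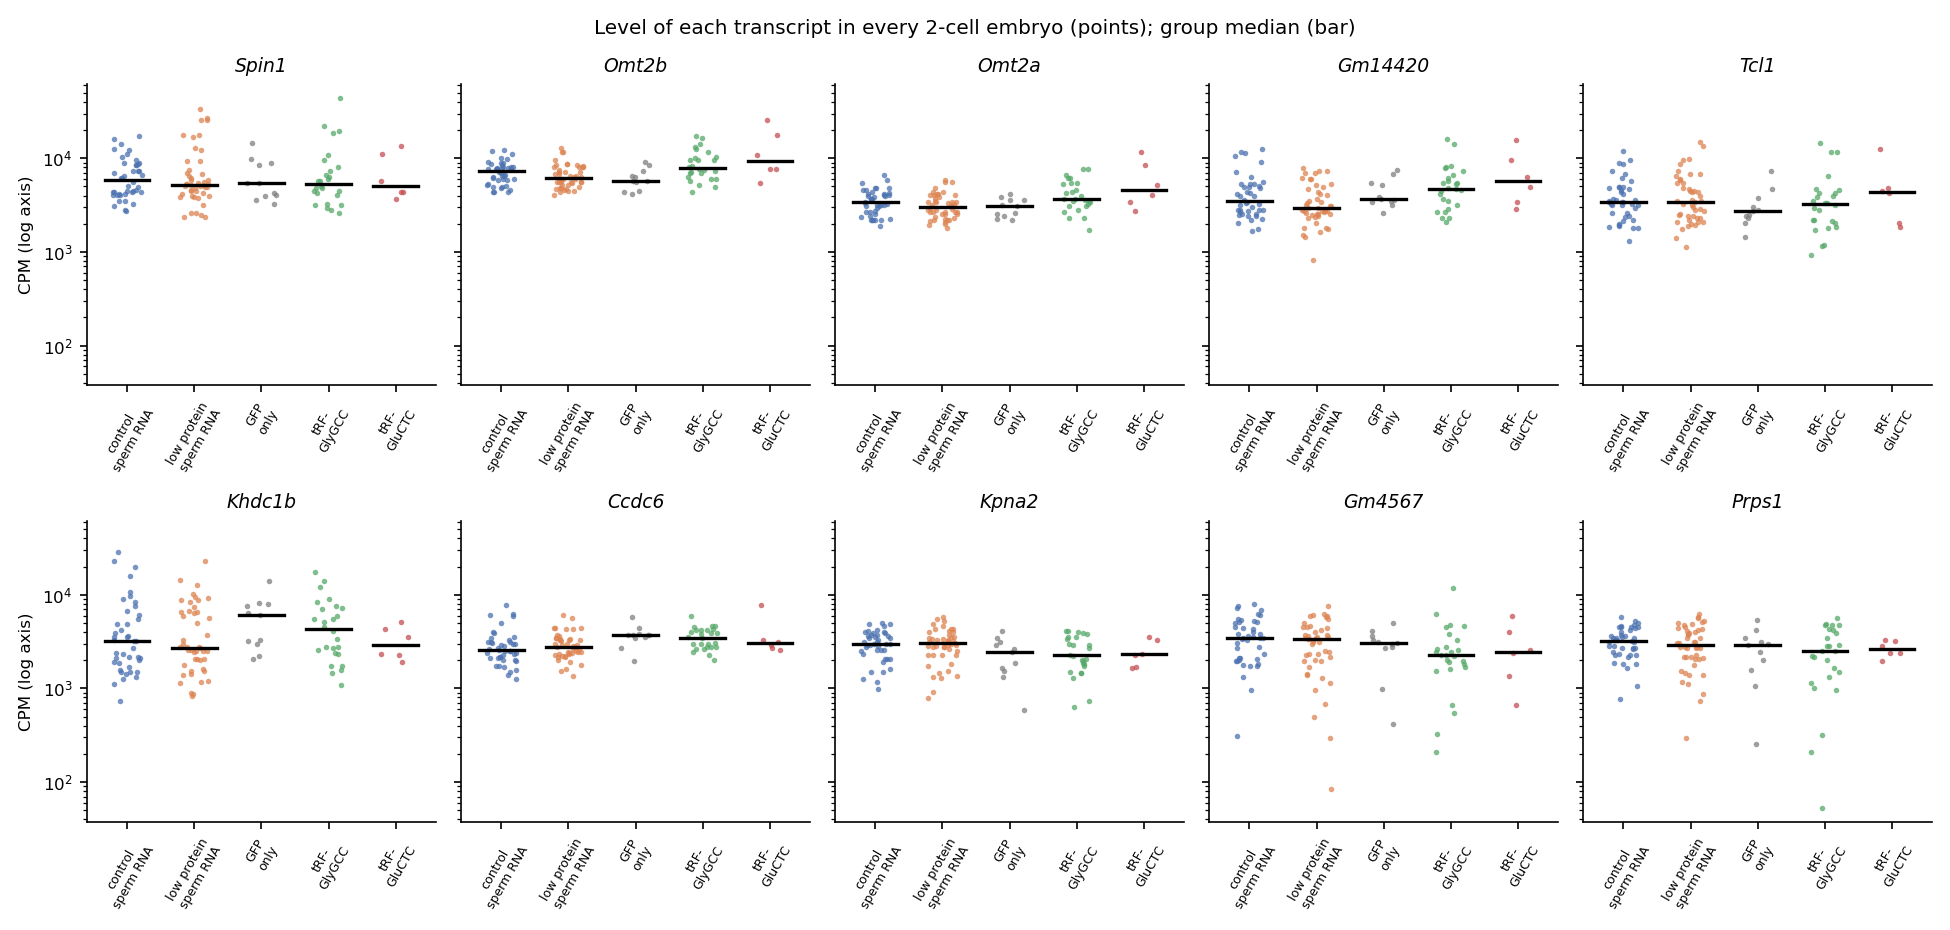
Level of each of the 10 transcripts in every 2-cell embryo in CPM (log axis), by injected RNA, with a bar at the group median. Every panel shows overlapping groups, and the lowest points are 52.8 CPM for Prps1 with tRF-GlyGCC and 83.4 CPM for Gm4567 with low protein sperm RNA.

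For tRF-GlyGCC against GFP, edgeR called 0% of 8804 genes and none of the 10 transcripts, and 2 of the 10 had an unadjusted p under 0.05, against 3.24% of all genes. DESeq2 called none of the 10 and no other gene. The 2 were Omt2b and Omt2a. Of the 10, 8 were higher and 2 lower with tRF-GlyGCC, against 4839 higher and 3965 lower of all 8804 genes. These directions are not independent, as several of the 10 are correlated across embryos. The median log2 fold change of the 10 was 0.20, against 0.04 over all genes. Directions held with the other scaling that was tried.

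Omt2b was at 4152, 5695 and 9086 CPM (lowest, median, highest) in 11 GFP embryos and at 4356, 7853 and 17073 CPM in 26 embryos with tRF-GlyGCC. Of the latter, 23 were above the GFP median and 11 above every GFP embryo, and none was below the lowest. Its log2 fold change was 0.50 ± 0.22 (unadjusted p = 0.0267, adjusted p = 1.00 by edgeR). Omt2a went from 2181, 3071 and 4168 CPM with GFP to 1720, 3670 and 7696 CPM with tRF-GlyGCC. Here 21 of 26 were above the GFP median and 11 above every GFP embryo, and the log2 fold change was 0.47 ± 0.22 (unadjusted p = 0.0387, adjusted p = 1.00 by edgeR). Both were higher in batch G and in batch H, by 0.56 and 0.31 on the log2 scale for Omt2b. The difference between the batches in this effect was -0.24 ± 0.40 for Omt2b, with an adjusted p of 1.00 by edgeR, where 0% of 8791 genes were called and 0.557% had an unadjusted p under 0.05, none of them among the 10. DESeq2 was not run for this difference.

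The fitted difference of Spin1 moved with single embryos. It was at 3238, 5405 and 14576 CPM with GFP and at 2572, 5356 and 43816 CPM with tRF-GlyGCC, so the medians were nearly equal. Its log2 fold change of 0.39 ± 0.36 became 0.03 ± 0.31 without tRF-GlyGCC replicate 18, which held the highest value, and 0.62 ± 0.38 without GFP replicate 8. Khdc1b was at 2056, 6045 and 14064 CPM with GFP and at 1076, 4332 and 17438 CPM with tRF-GlyGCC. Only 8 of 26 were above the GFP median, and the log2 fold change was -0.11 ± 0.34. Gm14420 (log2 fold change 0.26 ± 0.27), Tcl1 (0.34 ± 0.34) and Kpna2 (0.13 ± 0.25) had positive fold changes with 95% intervals that include 0. Tcl1 was at 0.16 ± 0.32 without tRF-GlyGCC replicate 18 and at 0.54 ± 0.36 without GFP replicate 8, and Kpna2 at 0.02 ± 0.24 without the latter. The fold changes of Ccdc6, Gm4567 and Prps1 lay between -0.07 and 0.09, with standard errors of 0.18, 0.36 and 0.39.

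The comparison of tRF-GluCTC with GFP shares its GFP embryos with the one before, so both are given side by side and not as support of each other. None of the 10 transcripts was called, as was 0% of 8804 genes by edgeR, while DESeq2 called 1 gene, which is none of the 10. Omt2a and Omt2b again had unadjusted p-values under 0.05, a level reached by 3.46% of all genes. All 6 tRF-GluCTC embryos are in batch H. Of the 10 transcripts 8 were higher, against 4368 of all 8804 genes, and here too the directions are not independent. The median log2 fold change of the 10 was 0.31, against -0.01 over all genes.

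Omt2a ranged from 2726 to 11758 CPM with a median of 4586 in the 6 tRF-GluCTC embryos, and 5 of the 6 were above the GFP median of 3071 CPM. That GFP median is over batches G and H, and in batch H alone it was 3584 CPM. The fitted log2 fold change was 0.91 ± 0.31 with an adjusted p of 1.00 by edgeR, and it was 0.59 ± 0.31 without tRF-GluCTC replicate 4. Omt2b ranged from 5501 to 25756 CPM with a median of 9303, and 3 of 6 embryos were above every GFP embryo. Of these 3, replicates 4 and 5 (25756 and 17520 CPM) had fewer genes detected. They had 7655 and 7626 genes, against 8358 to 8705 in replicates 1, 2, 3 and 6. The part of this in the fold changes was not tested. The log2 fold change of Omt2b was 0.85 ± 0.31 with an adjusted p of 1.00 by edgeR, and 0.51 ± 0.31 without replicate 4. Khdc1b lay on the other side, from 1922 to 5071 CPM with a median of 2939, and none of the 6 was above the GFP median of 6045 CPM. That GFP median too is over both batches. It was 6181 CPM in batch G and 3209 CPM in batch H, which holds all 6, so the count does not separate injected RNA from batch. The fit gave -0.85 ± 0.53 on the log2 scale, with an adjusted p of 1.00 by edgeR, and -1.02 ± 0.56 without replicate 4.

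Replicate 4 of the tRF-GluCTC group was the highest of the 6 for Spin1 (13554 CPM), Omt2b, Omt2a, Gm14420 (15616), Tcl1 (12522), Khdc1b (5071) and Ccdc6 (7683), and the lowest for Kpna2 (1635). Without it the log2 fold change of Tcl1 against GFP fell from 0.52 ± 0.49 to 0.00 ± 0.50, and that of Ccdc6 from -0.01 ± 0.27 to -0.36 ± 0.27. That of Gm14420 was 0.47 ± 0.40 with it and 0.07 ± 0.40 without, and that of Spin1 0.18 ± 0.52 with it and -0.10 ± 0.55 without. The sign of Ccdc6 flipped to 0.01 with relative log expression (RLE) scaling.

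Between the tRFs themselves, 0% of 8804 genes and none of the 10 transcripts were called by edgeR, and none of the 10 had an unadjusted p under 0.05, against 2.20% of all genes. DESeq2 called 1 gene and none of the 10. Khdc1b was higher with tRF-GlyGCC by 0.74 ± 0.47 on the log2 scale, with a 95% interval of -0.20 to 1.68. The log2 fold change of Omt2a was -0.44 ± 0.27, with an interval of -0.99 to 0.11, and that of Omt2b was -0.35 ± 0.27. Without tRF-GluCTC replicate 4, Omt2a was at -0.12 ± 0.28, Omt2b at -0.0096 ± 0.28 and Khdc1b at 0.91 ± 0.51. Leaving out that embryo also took Spin1 from 0.20 to 0.49 and turned Gm14420, Tcl1 and Ccdc6 to positive values of 0.18, 0.34 and 0.29. Over all embryos, the log2 fold changes of the transcripts other than Khdc1b and the Omt2 pair lay between -0.32 for Gm4567 and 0.20 for Spin1. The 95% interval reached past 1 on the log2 scale, in either direction, for Spin1, Tcl1, Khdc1b, Gm4567 and Prps1. For these 5 transcripts the intervals do not exclude a difference of that size.

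**Figure D2:**
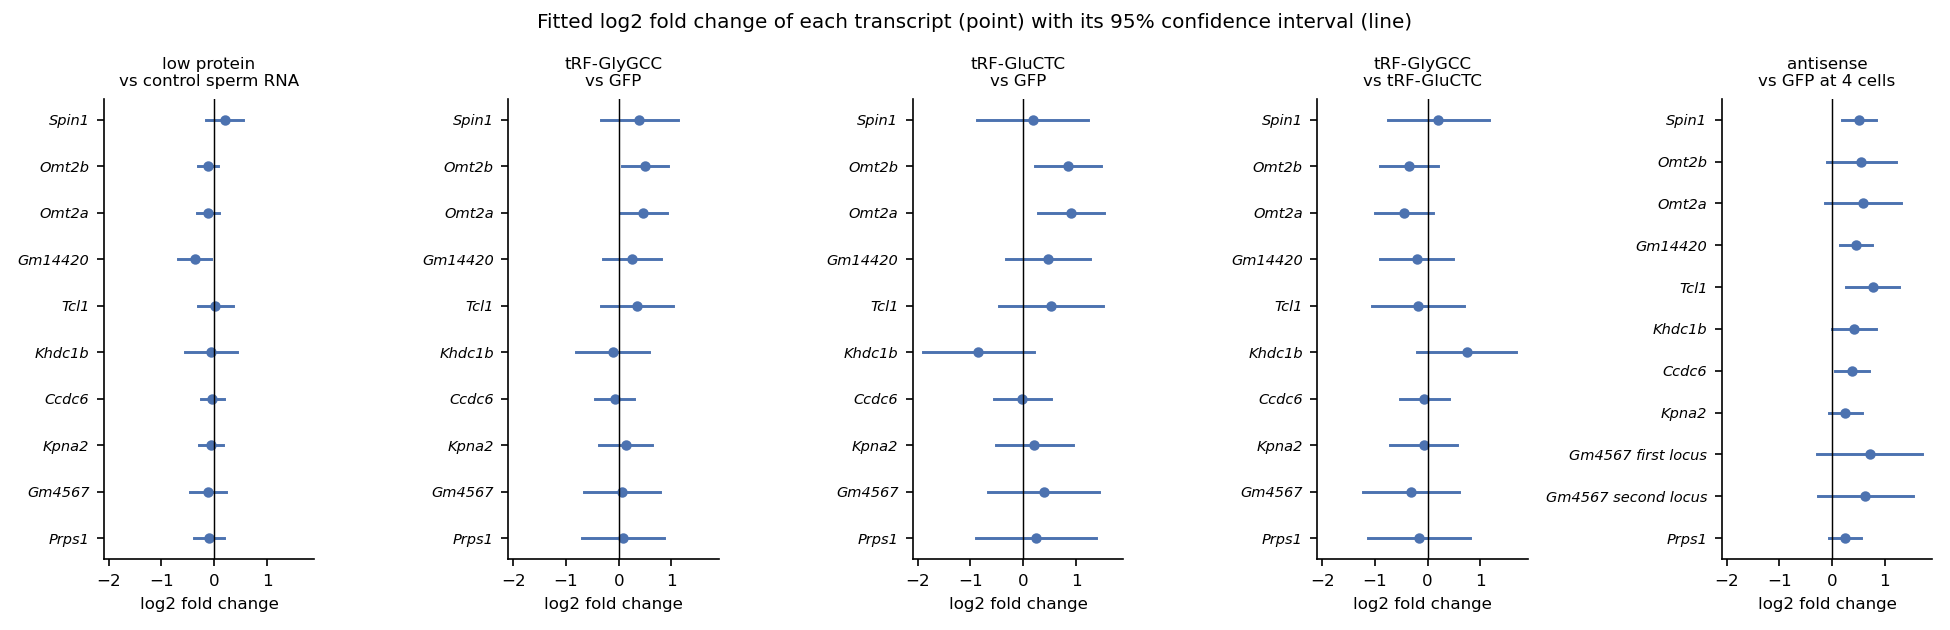
Fitted log2 fold change of each transcript with its 95% confidence interval in the 5 comparisons, by edgeR at the 2-cell and limma at the 4-cell stage. Intervals exclude 0 for Gm14420 with low protein sperm RNA, for Omt2b and Omt2a with both tRFs, and for Spin1, Gm14420, Tcl1 and Ccdc6 at the 4-cell stage, before adjustment over all genes.

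At the 4-cell stage, all 11 features of the 10 genes were fitted higher with antisense than with GFP, as were 3814 of all 7237 features tested. The 11 are not independent, as the loci of Gm4567 correlated at 1.00 and Omt2a with Omt2b at 0.98 across embryos. Other pairs also correlated, among them Prps1 with Kpna2 at 0.66, Omt2b with Tcl1 at 0.65 and Spin1 with Tcl1 at 0.64. Some pairs were negative, such as Ccdc6 with the first Gm4567 locus at -0.40. The median log2 fold change of the 11 was 0.51, against 0.01 over all 7237 features. None was called by limma on log2(FPKM + 1), where 0.0276% of features were called, both of these higher. Of the 11, 4 had an unadjusted p under 0.05 and were higher, against 7.25% of all features. The 4 were Tcl1, Spin1, Gm14420 and Ccdc6. Median-of-ratios scaling changed none of these directions. Stage markers were also at higher medians with antisense. The sum of 10 listed transcripts of the 2-cell stage had a median of 82.9 FPKM (19.7 to 872) with GFP and of 199 FPKM (51.6 to 1518) with antisense, and the sum of 8 listed oocyte transcripts one of 239.7 FPKM (127 to 945) and 312 FPKM (104 to 735). Their part in the differences of the 10 genes was not tested.

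Tcl1 was at 8.01, 26.2 and 97.1 FPKM (lowest, median, highest) in 28 GFP embryos and at 6.96, 48.2 and 245 FPKM in 27 antisense embryos. Of the 27, 21 were above the GFP median and 5 above every GFP embryo. Its log2 fold change was 0.77 ± 0.25 with an adjusted p of 0.188 by limma, and 0.72 ± 0.24 without antisense replicate 19, in which fewest features were detected. Within batches it was higher in 5 of 7 and ran from -0.29 in P to 2.37 in N. Spin1 was at 24.7, 62.8 and 151 FPKM with GFP and at 27.5, 85.8 and 275 FPKM with antisense, and again 21 of 27 lay above the GFP median. The fit gave 0.51 ± 0.16 on the log2 scale, with an adjusted p of 0.181 by limma.

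Gm14420 was at 69.3, 101 and 203 FPKM with GFP and at 75.2, 156 and 608 FPKM with antisense. No antisense embryo was below the GFP range, 22 of 27 were above the GFP median, and the log2 fold change was 0.45 ± 0.15 with an adjusted p of 0.192 by limma. Within batches it was higher in 5 of 7 batches that hold both groups and lower in K and P. Ccdc6 was at 13.8, 39.7 and 90.1 FPKM with GFP and at 15.7, 55.6 and 150 FPKM with antisense. It was the one of the 11 features that was higher within all 7 batches in the mean of log2 levels, by 0.22 to 0.73. How many of all features were higher within every batch was not counted. The log2 fold change of Ccdc6 was 0.37 ± 0.16 with an adjusted p of 0.359 by limma.

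The Omt2 pair spread more widely at this stage. Omt2b was at 147, 1103 and 2610 FPKM with GFP and at 195, 1421 and 10345 FPKM with antisense. Omt2a was at 78.7, 436 and 1053 FPKM with GFP and at 57.9, 637 and 5722 FPKM with antisense. The highest values of both were those of antisense replicate 19, and the log2 fold changes were 0.56 ± 0.33 and 0.58 ± 0.36. Prps1 and Kpna2 had medians closer together, with GFP medians of 994 and 702 FPKM against 1048 and 766 FPKM with antisense. Khdc1b had medians of 54.4 and 76.9 FPKM and a log2 fold change of 0.41 ± 0.21.

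For Gm4567 the fitted direction and the medians went opposite ways. Its first locus was at 4.34, 17.5 and 274 FPKM with GFP and at 2.99, 13.1 and 685 FPKM with antisense, so the median was lower and the highest values were higher with antisense. The fitted log2 fold change was 0.71 ± 0.50, and the difference within batches ran from -0.71 in K to 2.27 in M. The second locus followed the first embryo by embryo, with a Spearman correlation of 1.00 over 55 embryos after centring by group and batch.

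In the authors' deposited table, whose header gives no unit, Tcl1 had group values of 38.4 in control and 77.3 in injected embryos with a q-value of 0.00808, and was marked significant. Omt2a had values of 136 and 268 in the authors' deposited table with a q-value of 0.0294, and was also marked significant. The other 7 of the 10 genes listed there were higher in the injected group and not marked, with q-values from 0.146 for Ccdc6 to 0.505 for Kpna2 in the authors' deposited table, apart from Omt2b with values of 601 and 983 and the lowest q-value of those not marked. Gm4567 is not among its rows. In the fit of single embryos given above, neither Tcl1 nor Omt2a was called by limma. The mean of Omt2a over the single GFP embryos was 468 FPKM, against the authors' control value of 136 without a unit. The reason for that difference was not tested.

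**Figure D3:**
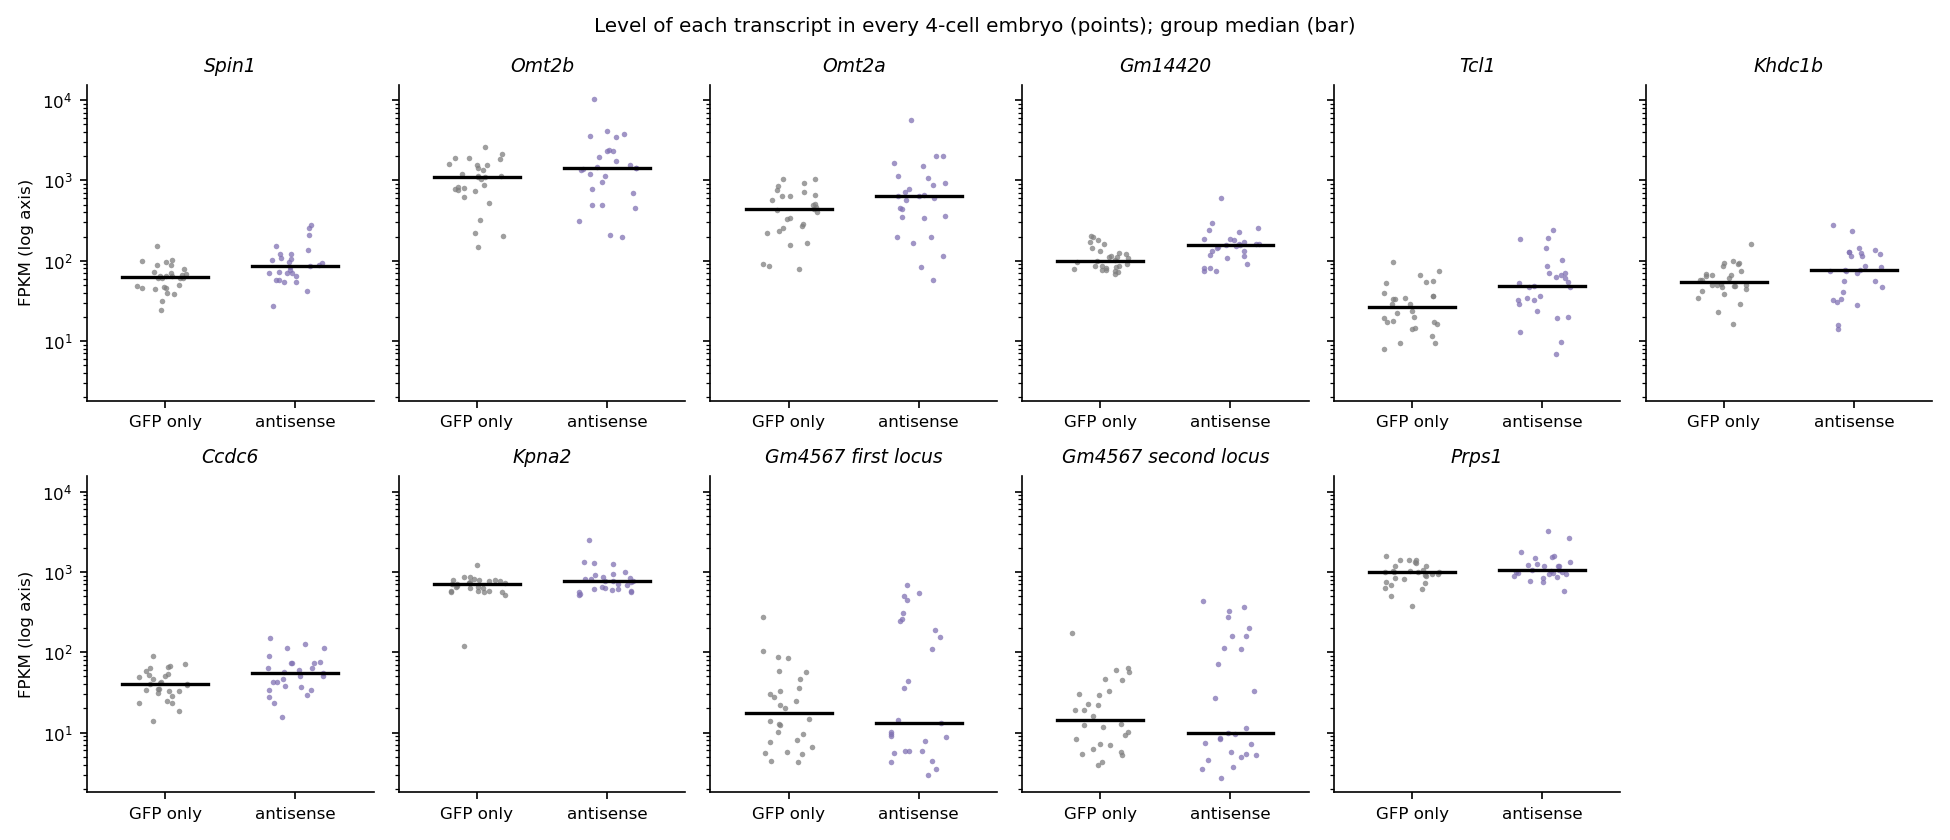
Level of the 11 features in every 4-cell embryo in FPKM (log axis), GFP against antisense, with a bar at the group median. The median was higher with antisense for all but the loci of Gm4567, whose antisense points reach from 2.99 to 685 FPKM at the first locus, and the groups overlap in every panel.

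By rank, the 10 transcripts divided between the stages. Ranks were taken per length within each embryo over 8415 genes common to the tables, which were normalised separately, so stages are described and not tested. Prps1, the nucleotide synthesis enzyme, had a median rank of 13 in 2-cell and 73.5 in 4-cell GFP embryos. Omt2b went from 1 to 78.5, Kpna2 from 17 to 120, and Omt2a from 4 to 230. The other 6 were much further down at 4 cells. Gm14420 was at a median rank of 5 at 2 cells and of 989 at 4 cells, Spin1 at 19 and 1515, and Khdc1b at 8 and 1641.5. Ccdc6 went from 46 to 2085, Gm4567 with its loci summed from 8 to 2359.5, and Tcl1 from 8 to 2987.5. For all but Kpna2 and Prps1, every one of the 28 GFP embryos at 4 cells ranked the transcript lower than any of the 11 at 2 cells, as was the case for 7.19% of the 8415 genes. The genes were chosen for their high level at 2 cells, which leaves little room but downward, so nothing is read from that count.

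**Figure D4:**
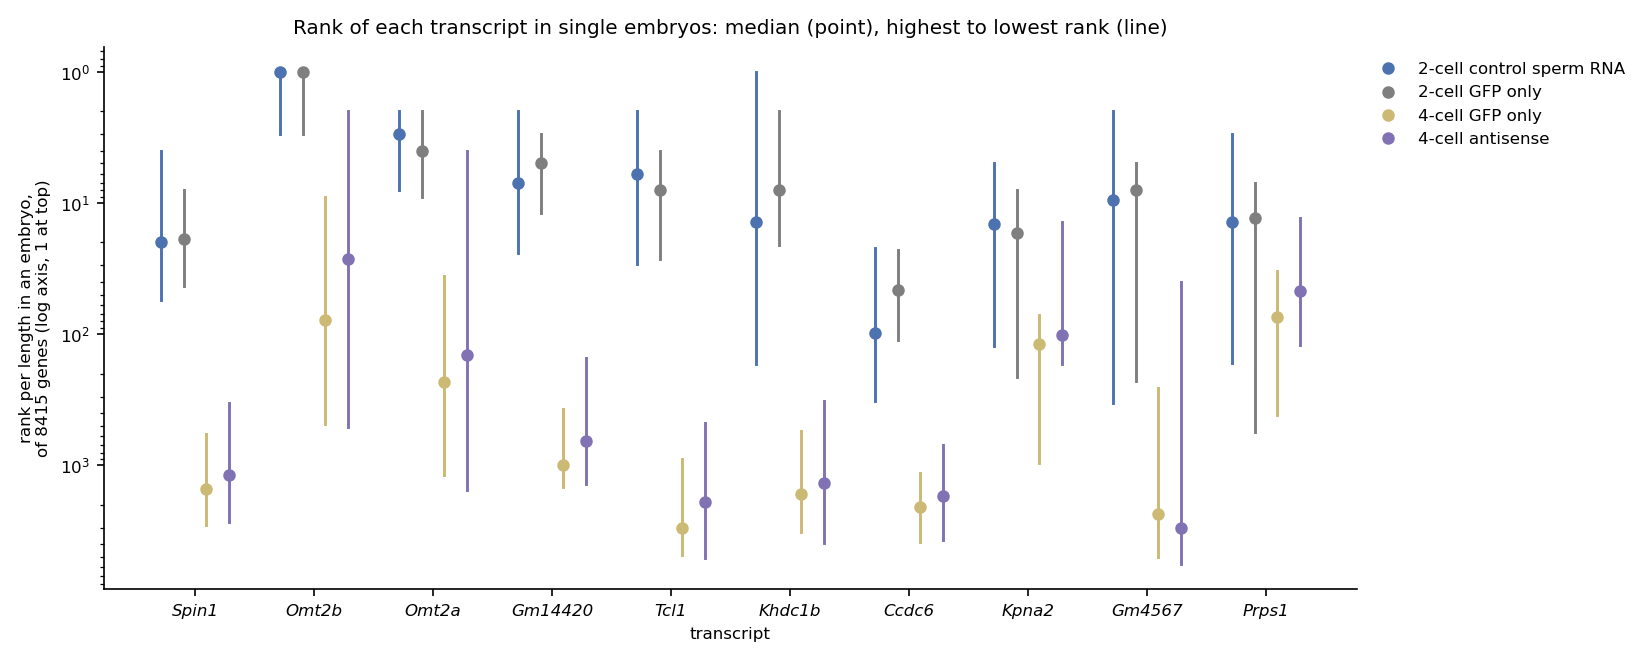
Median rank (point) and highest to lowest rank (line) of each transcript per length within single embryos, in 4 groups of 2 stages, on a log axis with rank 1 at the top. Prps1, Omt2b, Kpna2 and Omt2a keep median ranks of 73.5 to 230 in 4-cell GFP embryos, and the other 6 lie between 989 and 2987.5.

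The ratio of Omt2b to Omt2a was steady across injected RNAs. It was 2.07 ± 0.18 (SD, n = 42) with control and 2.10 ± 0.15 (n = 46) with low protein sperm RNA, in CPM. With GFP it was 2.02 ± 0.21 (n = 11) with tRF-GlyGCC 2.14 ± 0.35 (n = 26), and with tRF-GluCTC 2.09 ± 0.11 (n = 6). At 4 cells, in FPKM and thus per length, it was 2.48 ± 0.38 (n = 28) with GFP and 2.38 ± 0.47 (n = 27) with antisense. The units differ between the stages, so the ratios are not compared between them.

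Embryos of the same group differed widely. The spread between embryos beyond counting error, as a coefficient of variation estimated by edgeR, was 30.3% for Omt2b, 32.4% for Omt2a and 35.7% for Ccdc6 in the sperm RNA table. It was 74.6% for Khdc1b and 55.5% for Spin1, against a median of 43.1% over the 873 most abundant genes. In the tRF table Ccdc6 spread least, followed by Omt2b with 41.1%, and Prps1 most with 69.9%, against a median of 52.8% over the 881 most abundant genes. The levels of Omt2a and Omt2b were lower in embryos of higher total count in the sperm RNA table, with Spearman correlations of -0.58 and -0.60 over 88 embryos, and less so in the tRF table with -0.12 and -0.20 over 43. The part of that relation in the differences between groups was not tested.

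Part of the spread went with the batch. In the sperm RNA table the batch term was called for 5 of the 10 transcripts by edgeR, against 9.22% of 8721 genes. These were Gm4567 (adjusted p = 0.000472), Kpna2 (0.00806), Khdc1b (0.0137), Spin1 (0.0194) and Ccdc6 (0.0248). The median of Gm4567 was 4828 CPM in batch F and 294 CPM in batch D, a ratio of 16.4, and Spin1 was 3.95 times higher in batch D than in batch E. Batch D holds 3 embryos. For Omt2b the ratio of the highest to the lowest batch median was 1.41, and the adjusted p of its batch term was 0.663 by edgeR.

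In the tRF table the batch term was called for none of the 10 transcripts by edgeR, against 1.56% of 8804 genes, and 1 of the 10, Gm4567, had an unadjusted p under 0.05 against 13.9% of all genes. DESeq2 was not run for this term. At 4 cells it was called by limma for 5 of the 11 features, against 4.38% of 7237. These were Ccdc6 (adjusted p = 0.0167), Tcl1 (0.0240), Khdc1b (0.0381) and the loci of Gm4567 (0.0347 and 0.0368). The median of the first Gm4567 locus was 155 FPKM in batch M and 5.67 FPKM in batch K. Gm4567, Khdc1b and Ccdc6 were thus called in both the sperm RNA and the 4-cell table.

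Across embryos the transcripts moved in sets. All correlations here are Spearman coefficients of log2 levels centred by group and batch, and embryos share their tables, so they are descriptions without a p. Omt2a and Omt2b, which share sequence, correlated at 0.97 over 88 embryos with sperm RNA, at 0.93 over 43 in the tRF table and at 0.98 over 55 at 4 cells. Spin1, Khdc1b, Tcl1, Gm14420 and Ccdc6 were positively correlated with each other in both 2-cell tables. Spin1 and Khdc1b had coefficients of 0.72 and 0.84, Spin1 and Tcl1 of 0.71 and 0.77, and Gm14420 and Tcl1 of 0.47 and 0.85.

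Kpna2 and Prps1 made another set, with coefficients of 0.41, 0.77 and 0.66 in the sperm RNA, tRF and 4-cell table. Against Spin1, Prps1 was negatively correlated at 2 cells with -0.30 and -0.65, and Kpna2 with -0.50 and -0.59. At 4 cells the coefficients of Spin1 with Prps1 and Kpna2 were 0.04 and 0.14. Leaving out the 2 embryos farthest from the Spin1 median gave -0.25 and -0.60 for Prps1 in the 2-cell tables.

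Embryos at the edges followed this division in part. In tRF-GlyGCC replicate 18 Spin1 (43816 CPM) and Khdc1b (17438 CPM) were the highest of 43 embryos, and Prps1 (52.8 CPM) and Gm4567 (209 CPM) the lowest. In low protein replicate 14 Prps1 (297 CPM) and Kpna2 (797 CPM) were the lowest of 88, and Spin1 (26937 CPM) and Tcl1 (13474 CPM) each the second highest. In GFP replicate 8 of the tRF table Kpna2 was the lowest of 43 with 581 CPM, and Khdc1b the second highest with 14064 CPM. Other embryos departed from it in single transcripts. Low protein replicate 8 was lowest of 88 for Gm14420 while only 2 embryos were above it for Spin1. That embryo followed the division for Kpna2 and Prps1, at places 6 and 7 from the lowest. Low protein replicate 17 was highest for Prps1 and at place 8 from the lowest for Kpna2. Low protein replicate 24 was highest for Spin1 and Tcl1. From the lowest it was at place 6 for Prps1 and at place 15 for Kpna2 and for Gm14420. These embryos were picked out by their values and were tested for nothing.

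Sums of stage markers correlated with several of the transcripts. The summed level of 7 listed oocyte transcripts (Zp2, Zp3, Gdf9, Bmp15, Oosp1, Nlrp5 and Btg4, with Mos not listed at 2 cells) correlated with Spin1 at 0.78 and 0.84 in the 2-cell tables and with Tcl1 at 0.65 and 0.66. With Prps1 it correlated at -0.35 and -0.53, with Kpna2 at -0.44 and -0.43, and with Gm14420 at 0.46 and 0.72. The sum of 10 transcripts of the 2-cell stage, among them Zscan4c and Zfp352, correlated with Gm14420 at 0.65 and 0.59, and with Gm4567 at 0.65 and 0.23. With Spin1 this sum correlated at 0.41 and 0.49, with Tcl1 at 0.39 and 0.52 and with Khdc1b at 0.49 in both tables. The oocyte sum had a median of 3815 CPM (1446 to 8388) with control and of 3411 CPM (1736 to 19508) with low protein sperm RNA. It was 3874 CPM with GFP, 3380 with tRF-GlyGCC and 4498 with tRF-GluCTC. Its part in the differences between groups was not tested. None of 6 spermatid and sperm markers was listed at 2 cells, and of 10 cumulus and granulosa markers Amhr2 alone was.

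**Figure D5:**
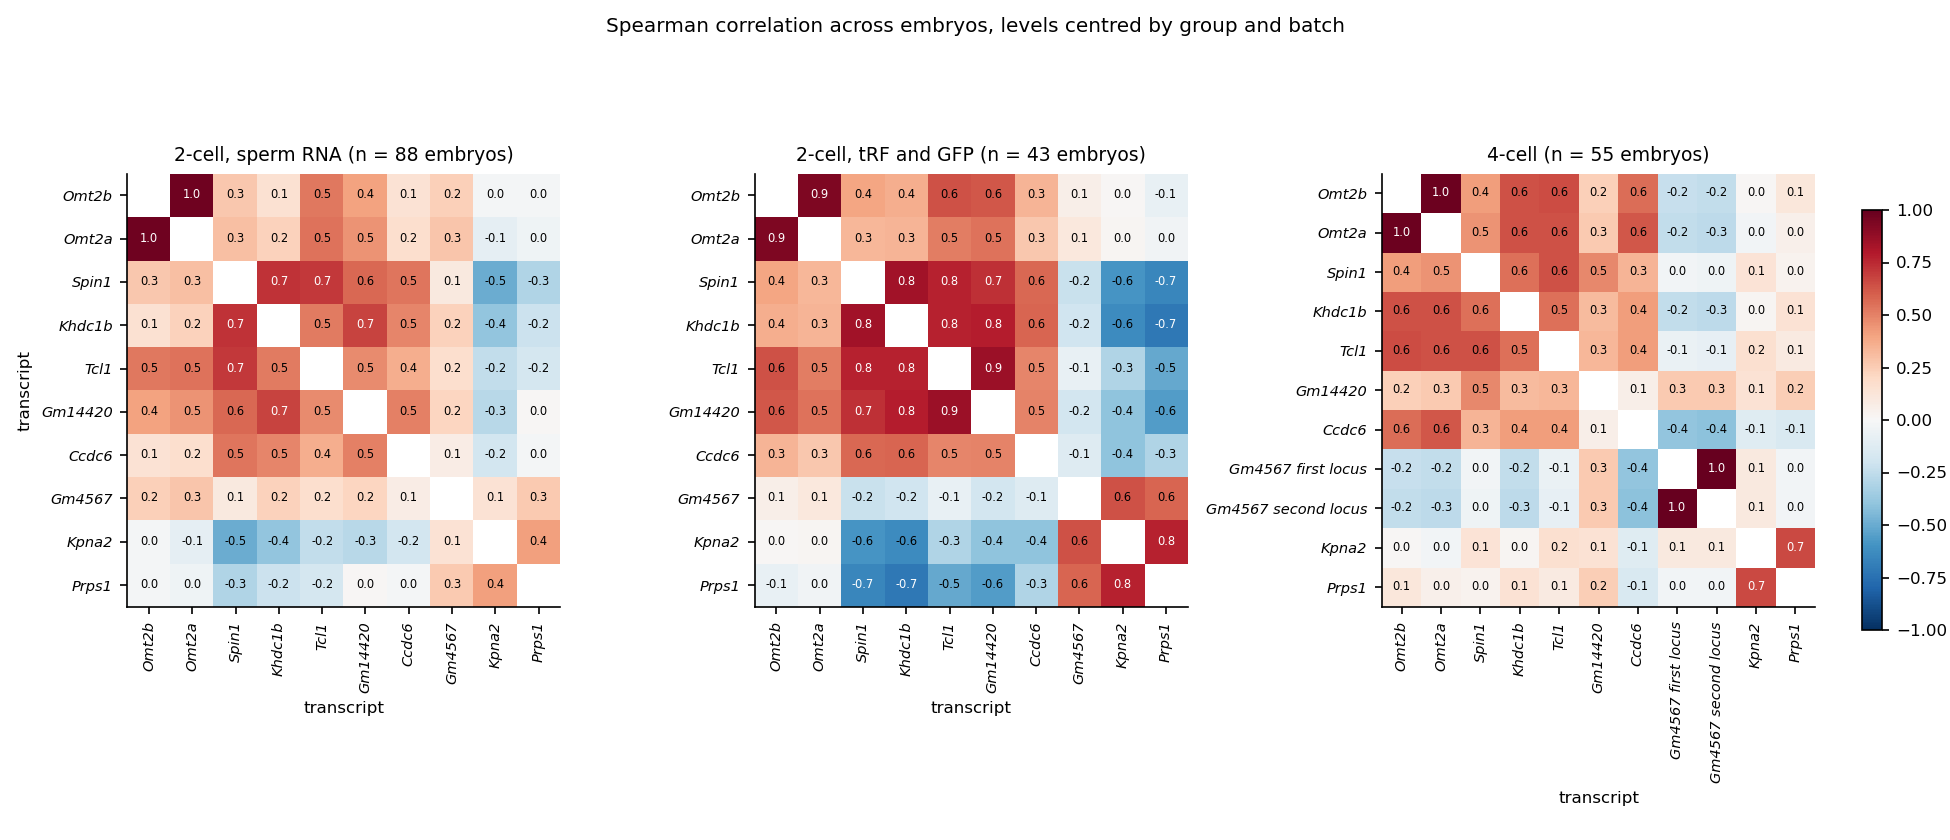
Spearman correlation between the transcripts across embryos, after centring log2 levels by group and batch, in the 3 tables (red positive, blue negative, number of embryos in each title). Omt2a and Omt2b correlate at 0.93 to 0.98 in all 3, and Kpna2 and Prps1 are negative to Spin1 and Khdc1b in the 2-cell tables.

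For each transcript the genes of most similar pattern were taken over the 88 embryos with sperm RNA. Gm14420 was matched at 0.98 by Intu, Gm14322 and Acnat1, and at 0.99 by all 3 in the tRF table. Intu and Acnat1 shared no 50-base stretch with it in the annotation, and Gm14322 shared 2.65% of its stretches. Gm4567 was matched by Gm5891 at 0.93, by Gm6902 at 0.88, which holds 86.3% of its stretches, and by Gm16381 at 0.84. Omt2b and Omt2a had Serf2 next after each other, at 0.83 and 0.86.

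Of the other transcripts, Spin1 was most like Surf4 (0.85), Zbed3 (0.85) and Gm1965 (0.85), and Tcl1 most like Tcl1b2 (0.85), Ccndbp1 (0.82) and Tcl1b1 (0.81), with which it shares no 50-base stretch. Khdc1b was most like 2010107G23Rik (0.81), Marchf5 (0.79) and Ube2d2a (0.79), and Ccdc6 most like Cdv3 (0.79), Ptp4a2 (0.76) and Glcci1 (0.71). Kpna2 was most like Tmem41b (0.84), Nolc1 (0.80) and Atf1 (0.77), and Prps1 most like Dkc1 (0.77), Yy2 (0.75) and Sat1 (0.73). In the tRF table the best match of Omt2a, Omt2b, Kpna2 and Gm4567 was the same gene as in the sperm RNA table. At 4 cells Tcl1 and Tcl1b2 still correlated at 0.72 over 55 embryos, and Spin1 and Surf4 at 0.18. The loci of Gm4567 correlated there with Gm5891 at -0.09 to -0.07. With Gm6902 they correlated at 0.97 to 0.99, and with Gm16381 at 0.42 to 0.45.

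Relatives and partners of the 10 gave no call in any comparison. The Tcl1 relatives Tcl1b1 to Tcl1b5 were all higher with tRF-GlyGCC than with GFP, as were 4839 of all 8804 genes. The median log2 fold change of these relatives was 0.57, against 0.04 over all genes. Tcl1b1, Tcl1b2 and Tcl1b4 had unadjusted p-values under 0.05 by edgeR, a level reached by 3.24% of all genes. In the tRF table Tcl1b1 and Tcl1b2 correlated with Tcl1 at 0.87 and 0.81, so these counts are not independent. The same relatives were all higher with tRF-GluCTC as well, against the same GFP embryos, as were 4368 of all 8804 genes. Here the median was 0.76 against -0.01 over all genes. Of the 5, 3 had an unadjusted p under 0.05 by edgeR, against 3.46% of all genes. Between the tRFs all 5 were lower with tRF-GlyGCC, at a median of -0.27, and none had an unadjusted p under 0.05. Tcl1b1, the most abundant, was at 2149 ± 1190 CPM (SD, n = 26) against 1459 ± 404 (n = 11), a log2 fold change of 0.57 ± 0.27 with an adjusted p of 1.00 by edgeR. All 5 were also higher with antisense at 4 cells, as were 3814 of 7237 features, with medians of 0.35 and 0.01. Tcl1b1 there was at 54.6 ± 59.3 FPKM against 36.1 ± 30.2, and its adjusted p was 0.426 by limma. With low protein sperm RNA 2 of the 5 were higher and 3 lower.

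Of the genes with symbols beginning like Gm14420, none was called in any comparison. With low protein sperm RNA 4 of 5 such genes were lower at an unadjusted p under 0.05, namely Gm14325, Gm14322, Gm14436 and Gm14403, with adjusted p-values of 1.00 by edgeR, against 1.53% of all genes lower at that level. In the comparisons of either tRF with GFP 4 of 5 were higher and none had an unadjusted p under 0.05. At 4 cells 11 of 14 features tested were higher with antisense at an unadjusted p under 0.05, against 7.25% of all features, with a median fold change of 0.59 on the log2 scale and a lowest adjusted p of 0.180 by limma. Gm14322 correlated with Gm14420 at 0.98 and 0.99 in the 2-cell tables and at 0.80 at 4 cells. Gm14440 shares 37.8% of the stretches of Gm14420, and Gm14322 shares 2.65%. These values are thus not independent, and the counts of 4 of 5 and 11 of 14 may not be of separate results. Of the KH-domain relatives, 4 of 5 were higher with tRF-GlyGCC than with GFP at a median of 0.06, and 0 of 5 with tRF-GluCTC. With low protein sperm RNA 1 of 5 was higher, and with antisense at 4 cells 4 of 5. Dppa5a was higher with tRF-GlyGCC than with GFP at 352 ± 207 against 190 ± 154 CPM (adjusted p = 1.00 by edgeR). Khdc1a differed little, at 649 ± 459 against 582 ± 343 CPM.

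Of the importins and Ran cycle genes, 22 were tested and 16 were higher with low protein sperm RNA. Their median was 0.07 on the log2 scale, against 0.02 over all genes. Against GFP 6 of 22 were higher with tRF-GlyGCC and 10 of 22 with tRF-GluCTC, and 12 of 22 with antisense at 4 cells. Of the genes of phosphoribosyl pyrophosphate and nucleotide synthesis, 26 were tested at 2 cells, and 21 of them were higher with tRF-GlyGCC than with GFP at a median of 0.22, as were 4839 of all 8804 genes at a median of 0.04. With tRF-GluCTC against the same GFP embryos 11 of 26 were higher at a median of -0.03, and with low protein sperm RNA 19 of 26 at 0.03. With antisense at 4 cells 13 of 25 were higher. The AKT kinases, which Tcl1 binds, were higher in 2 of 3 cases with low protein sperm RNA, in 1 of 3 with tRF-GlyGCC and in 0 of 3 with tRF-GluCTC against GFP. They were higher in 3 of 3 with tRF-GlyGCC against tRF-GluCTC and in 0 of 2 with antisense at 4 cells, where the median was -0.24. No spindlin gene other than Spin1 was listed at 2 cells.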

How the data were processed

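RNA was measured in single mouse embryos, 131 at the 2-cell and 55 at the 4-cell stage. The authors deposited expected counts per gene for 2-cell embryos, with a count of 0 shown as 0.1, per the file headers and values. The authors deposited FPKM per feature for 4-cell embryos, with 0 shown as 0.001. The authors' deposited comparison of 4-cell groups gives p-values and q-values, and other group values without a stated unit. Bowtie and mm10 are named in the submitters' processing notes, and the counting step is not described there.

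Counts were rounded and tested by edgeR 4.0.16 (quasi-likelihood, TMM, filterByExpr) in R 4.3.3, with group and batch in 1 model per table. FPKM were tested by limma 3.58.1 on log2(FPKM + 1) for features of mean 5 FPKM or more. This fold change understates the change of low features. P-values were two-sided and adjusted over all features (Benjamini-Hochberg, 0.05). DESeq2 1.42.0 was an alternative, as were other scalings, filters and pseudocounts, and leaving out batches or embryos. Tests were tried on simulated counts. Symbols that a spreadsheet had turned into dates (10 per table) were restored. One labelled antisense embryo without a column is not analysed here. The labels do not say which embryos are of separate matings, so p-values measure the spread between embryos. Whether PCR copies were removed is not stated.

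All 10 transcripts are named in each comparison. Beside each, the 3 genes of highest correlation over embryos with sperm RNA are named, and of each list those of highest level. The transcripts, lists and tests were chosen with earlier results of these data known.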

Additional observations from a re-analysis of the deposited data

Results flagged for a closer look

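In the 6 tRF-GluCTC embryos, replicate 4 lay far above the others for Tcl1, the AKT-binding protein, at 12522 CPM against 4758 CPM in the next embryo, a gap of 0.727 of the range. The same embryo stood apart for Ccdc6 at 7683 CPM against 3257 CPM, a gap of 0.867 of the range. Of 10 sets of values tested in this way, each of 1 transcript in 1 group, chance would flag about 1 in 20 if they were independent. The gaps were taken on CPM and not on a log scale, and that rate was not checked for skewed values. Both flags come from the same embryo and the transcripts are correlated across embryos, so that rate does not hold for them together. Fold changes without this embryo stand beside those results that it moved most.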

How the results depend on the processing

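None of the 10 transcripts was called under any alternative that was run. At 4 cells all 165 of their values under alternatives kept their direction. At 2 cells the direction turned in 10 values and was kept in 130 for low protein against control sperm RNA. It turned in 8 and was kept in 92 for tRF-GlyGCC against GFP, in 7 and 83 for tRF-GluCTC against GFP, and in 5 and 85 between the tRFs.

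Counts of called genes moved as follows, and the cause was not tested. For low protein against control sperm RNA, 8 genes became 18 with DESeq2, 16 without the batch term, 14 without batch A, 15 without batch C, 2 without low protein replicate 14, and 0 without batch E, without batch F or without the 2 control embryos of lowest total. With DESeq2, 1 gene in place of 0 was called for tRF-GluCTC against GFP and for tRF-GlyGCC against tRF-GluCTC. For antisense, 2 features became 10 without the 2 antisense embryos of fewest features, 8 without antisense replicate 19, 4 without batch M or P, 1 without batch L and 0 without batch Q.

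Log2 fold changes that turned were these. For low protein sperm RNA, Tcl1 was -0.037 without batch C, -0.0040 without batch D and -0.053 without low protein replicate 14. Khdc1b was 0.0083 without batch F, Ccdc6 0.017 without the batch term, 0.12 without batch E and 0.0044 without batch F, and Kpna2 0.015 without the batch term and 0.040 without batch C. For tRF-GlyGCC against GFP, leaving out GFP replicate 8 turned Khdc1b to 0.16, Gm4567 to -0.057 and Prps1 to -0.065, and leaving out tRF-GlyGCC replicate 18 kept their directions at -0.32, 0.14 and 0.17. Ccdc6 was 0.071 in batch H alone, Gm4567 -0.049 without the batch term, and Prps1 -0.015 without it and -0.26 in batch G alone. For tRF-GluCTC against GFP, Spin1 turned to -0.10 without tRF-GluCTC replicate 4 and kept its direction at 0.47 without GFP replicate 8, while Ccdc6 kept its direction at -0.36 without the former and turned to 0.028 without the latter. Ccdc6 was also 0.0057 with RLE scaling, 0.0055 with DESeq2, 0.015 without the batch term and 0.10 in batch H alone, and Gm4567 was -0.046 without the batch term. Between the tRFs, leaving out tRF-GluCTC replicate 4 turned Gm14420 to 0.18, Tcl1 to 0.34 and Ccdc6 to 0.29, leaving out tRF-GlyGCC replicate 18 kept their directions at -0.22, -0.23 and -0.057, and Kpna2 was 0.023 without the batch term. Leaving out single named embryos was chosen after seeing the data.

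The numbers that embryos share in their titles within a batch were tried as a replicate block at 2 cells. Same-numbered embryos deviated together with correlations from -0.415 to 0.163 (12 blocks) in the sperm RNA table. There the numbers were not taken to pair embryos. In the tRF table the correlations ran from -0.083 to 0.458 (6 blocks), with 0.443 and 0.458 for numbers 2 and 4 of batch H. Same-numbered embryos of the tRF table may thus not be independent, while its main fit has no block term and treats them as such. With the replicate block, 0 genes were called in each 2-cell comparison, and Khdc1b with low protein sperm RNA was 0.020, Gm4567 with tRF-GlyGCC against GFP -0.031, and Spin1 between the tRFs -0.059. At 4 cells no block was fitted. The comparisons with tRF-GluCTC rest on 6 embryos and those with GFP at 2 cells on 11. How far depth limits them was not tested.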
